A study of Mus musculus with 8 samples.

Results

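The genes described here are the hypoxia-inducible factors (HIF), the enzymes that sense oxygen for them, the enzymes and transporters of glycolysis, and further HIF target genes, in fibroblasts grown at 3% oxygen. They were chosen by name, 40 genes in all, and each was read from the probe sets annotated to that gene alone, with the probe set of highest mean over the 8 arrays standing for the gene. Of the 40 genes, 36 had such a probe set, and 33 entered the comparison of genotypes among 9511 genes tested. Aldoc, Car9 and Car12 lay below the floor of 6.06 (the 40th percentile of probe set means) under which genes were not tested, and Gapdh was present only as control probe sets. For Gpi1, Eno1 and Bnip3l no probe set annotated to them alone was used, so they are not analysed here. No tested gene of the 33 had a genotype mean below the floor.

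The cells were primary mouse embryonic fibroblasts, cultured straight from embryos and not immortalised, backcrossed more than 7 times to come near C57BL/6J. There were 4 wild-type (WT) lines and 4 lines without both cryptochrome genes, Cry1-/- and Cry2-/- (Cry DKO), each an independent line measured on 1 Affymetrix array. All 8 lines proliferated unsynchronised, with 10% fetal calf serum and no treatment, and 3% oxygen was the condition of both genotypes. No line at another oxygen tension was analysed here, so the values compare genotypes at low oxygen and hold no oxygen response. All values are on the deposited scale, taken as log2 from its range, and all differences are Cry DKO minus WT.

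When oxygen is available, prolyl hydroxylases of the EGLN family mark the HIF alpha subunits, HIF1A and EPAS1, and the VHL ubiquitin ligase then has them degraded. At low oxygen the alpha subunits persist, pair with ARNT and bind hypoxia response elements in target genes. Those targets include glucose transporters, most glycolytic enzymes and Pdk1, whose product diverts pyruvate away from the mitochondrion, and also Egln3 itself. Cryptochromes are repressors of the circadian clock and hold back CLOCK and ARNTL, which bind the E-box, a DNA element related in sequence to the hypoxia response element.

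The promoters of Pdk1, Egln3 and Slc2a1 are shown because these genes rose in Cry DKO lines, and that of Ldha because it holds the E-box as well. Each sequence is the 250 bases before the transcription start on the strand of the gene, from RefSeq on assembly GRCm38.p6. Capitals mark the hypoxia response element core, ACGTG or GCGTG, on either strand (read as CACGT or CACGC on the strand shown). The coordinates are chr2:71872974-71873223 on the plus strand for Pdk1, chr12:54203875-54204124 on the minus strand for Egln3, chr4:119108495-119108744 on the plus strand for Slc2a1 and chr7:46845554-46845803 on the plus strand for Ldha.
Pdk1: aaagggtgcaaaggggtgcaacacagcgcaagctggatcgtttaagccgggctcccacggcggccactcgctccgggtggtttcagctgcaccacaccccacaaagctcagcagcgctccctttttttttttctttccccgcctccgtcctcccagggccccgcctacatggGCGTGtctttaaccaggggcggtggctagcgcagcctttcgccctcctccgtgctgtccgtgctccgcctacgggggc
Egln3: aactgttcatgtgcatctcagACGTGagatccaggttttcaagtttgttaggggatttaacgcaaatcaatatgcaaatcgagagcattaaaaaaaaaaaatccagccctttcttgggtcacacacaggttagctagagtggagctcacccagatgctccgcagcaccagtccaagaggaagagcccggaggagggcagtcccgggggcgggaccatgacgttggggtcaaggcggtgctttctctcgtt
Slc2a1: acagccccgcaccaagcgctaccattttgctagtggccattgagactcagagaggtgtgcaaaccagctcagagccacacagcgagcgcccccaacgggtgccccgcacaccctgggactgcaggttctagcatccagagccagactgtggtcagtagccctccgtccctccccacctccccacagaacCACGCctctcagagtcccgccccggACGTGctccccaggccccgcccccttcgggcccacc
Ldha: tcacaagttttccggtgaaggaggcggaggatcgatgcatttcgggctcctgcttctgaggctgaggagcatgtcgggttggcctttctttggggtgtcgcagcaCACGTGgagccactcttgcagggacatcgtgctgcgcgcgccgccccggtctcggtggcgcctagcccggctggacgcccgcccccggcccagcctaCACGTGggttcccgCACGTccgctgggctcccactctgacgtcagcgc

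Counted from the start, the core began at -78 in Pdk1, at -229 in Egln3, and at -61 and -36 in Slc2a1. A further GCGTG in Pdk1 began at -2 and ran past the window. Pdk1 and Ldha each have a further listed start downstream, which is not shown. In Ldha the E-box CACGTG, which contains ACGTG on both strands, began at -145 and at -48, and a further CACGT began at -34. Of the 40 genes 35 were in the promoter table, with 50 promoters, and 31 of the 35 genes held ACGTG or GCGTG in the 250 bases before a listed start. Counted by promoter, 80% of the 50 held it, beside 38.6% of all 32851 promoters. Counted by gene, 88.6% of the 35 held it, beside 41.5% of all genes with a promoter listed and 63.9% of the genes tested on the arrays. CACGTG was present in 5 of the 35 genes, Bnip3, Hif1a, Ldha, Pfkfb3 and Pfkm (in Egln2 one crossed the start and was not counted), and in 10.4% of the genes tested. These counts describe letters in a window and say nothing of what binds there.

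The array set was even. Array medians were nearly equal, and correlations over the genes tested were 0.982 to 0.991 within a genotype and 0.972 to 0.986 between genotypes. The control probe sets at the 3' and 5' ends of Gapdh differed by -0.35 to -0.31 in WT and by -0.37 to -0.30 in Cry DKO lines. Those of Actb differed by 0.18 to 0.31 in WT and by 0.16 to 0.21 in Cry DKO lines. Both signs of RNA quality overlapped between the genotypes, though for Actb 2 WT lines were above all Cry DKO lines. Fibroblast markers were well above the floor for 13 of 16 genes, among them Vim and Col1a2, while Pdgfra, Dcn and Lum were below it. Macrophage and blood markers were present, 17 of 17 above the floor, and their mean was higher in Cry DKO (8.81 to 9.76) than in WT lines (8.15 to 8.74). All 5 endothelial and all 3 erythroid or liver markers with a probe set were below the floor. The mean of 19 replication and mitosis genes was also higher in Cry DKO (10.00 to 10.11) than in WT lines (9.51 to 9.66). Y-linked signal was low in WT line 1 and in Cry DKO lines 1 and 4 and high in the other lines. The targeted genes Cry1 and Cry2 had differences of -0.50 (SE 0.21, limma adjusted p = 0.168) and -0.34 (SE 0.13, limma adjusted p = 0.132) with overlapping groups, so these probe sets do not check the genotype labels.

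Of the 33 genes 4 rose in Cry DKO lines and none fell: Ndufa4l2, Pdk1, Egln3 and Slc2a1. The background for that count was 9.18% of the 9511 genes tested, 4.95% higher and 4.23% lower, at a limma adjusted p of 0.05. At an unadjusted p of 0.05 there were 10 higher and 1 lower, beside 25.3% of all genes in either direction. The difference was above 0 for 25 of the 33, beside 48.5% of all genes, with a median of 0.15 beside -0.01. All 4 Cry DKO lines lay above all WT lines for 8 of the 33 (Hif1a, Egln3, Slc2a1, Pfkp, Tpi1, Ldha, Pdk1 and Ndufa4l2) and below them for none, beside 8.32% above and 8.44% below over all genes. In the other probe sets above the floor the groups overlapped for Hif1a, Egln3, Slc2a1 and Pfkp, and in another of Tpi1. Differences were small: the 95% confidence interval lay within 0.5 of zero on either side for 28 of the 33. Because RNA came from whole cultures, a change in the share of a cell type and a change per cell cannot be told apart.

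**Figure D1:**
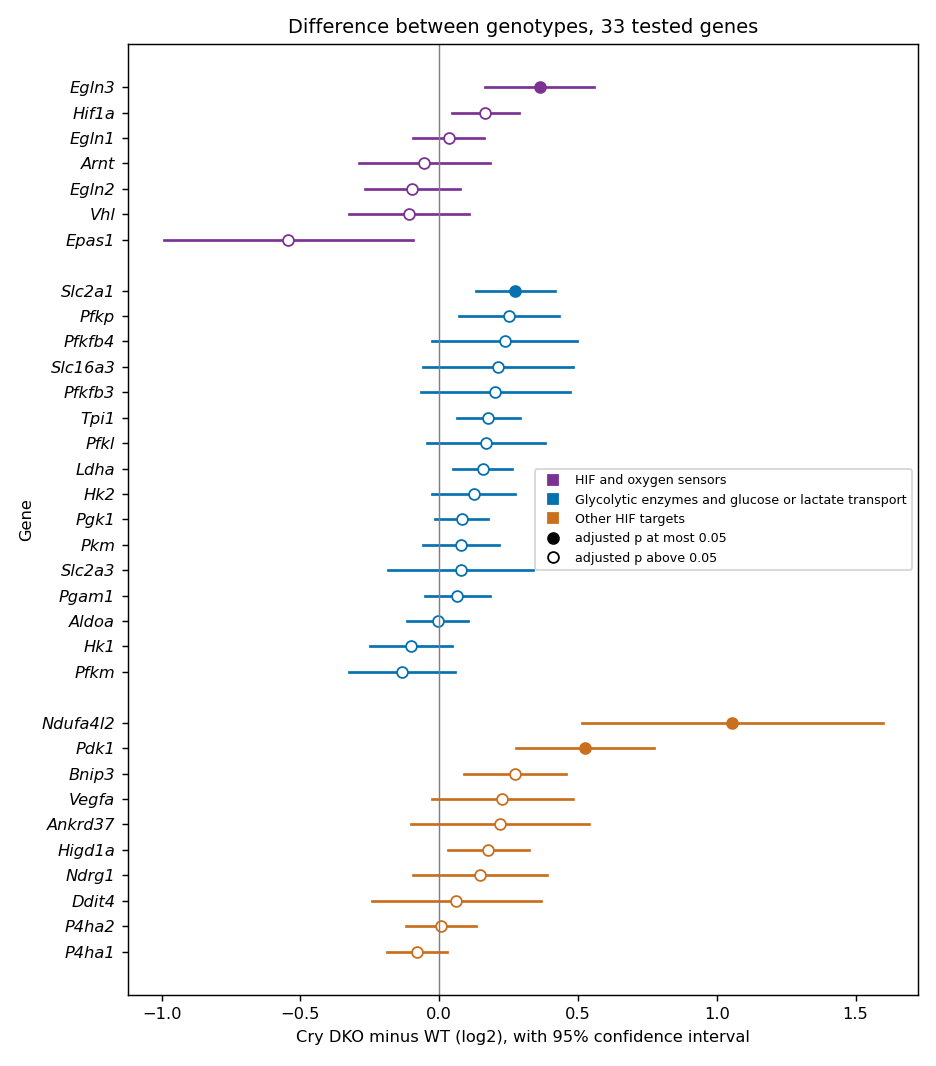
Difference between Cry DKO and WT lines (x axis, log2) for the 33 tested genes, grouped by role, with 95% confidence intervals from limma (n = 4 lines per genotype). Filled points mark the 4 genes that passed, Egln3, Slc2a1, Pdk1 and Ndufa4l2, and Epas1 lies lowest at -0.54.

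The first comparison asked whether the oxygen-sensing machinery itself differs between the genotypes. Of its 7 genes, all tested, 1 rose and none fell, beside the 9.18% of all genes called, and the median difference was -0.05. Egln3 encodes the prolyl hydroxylase that is itself a HIF target. WT lines 1 to 4 had 8.22, 8.44, 8.08 and 8.38, and Cry DKO lines 1 to 4 had 8.53, 8.69, 8.63 and 8.72. Every Cry DKO line was thus above every WT line, with WT line 3 the lowest. The mean was 8.28 ± 0.16 in WT and 8.64 ± 0.08 in Cry DKO (SD, n = 4), and Egln3 rose by 0.36 (limma adjusted p = 0.0306, SE 0.09). Its other probe set gave 0.20 (limma adjusted p = 0.355 when each probe set was tested, where 6.81% were called), with overlapping groups. The call ended without WT line 1 or 3 or Cry DKO line 2, 3 or 4 (adjusted p 0.0634 to 0.0792, differences 0.30 to 0.37), with the mean of both probe sets (0.28, adjusted p = 0.0609) and with a term for the sex of the lines, read from Y-linked signal (adjusted p = 0.0508).

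The other hydroxylases did not move with it. Egln1, the main oxygen sensor in most cells, had a difference of 0.03 (95% interval -0.09 to 0.16), and Egln2 one of -0.10 (-0.27 to 0.08). In Cry DKO lines 1 to 4 Egln2 had 9.18, 8.90, 8.93 and 8.92, so line 1 stood apart. Set against Egln1 within each line, Egln3 differed between genotypes by 0.33 (SE 0.10, exact two-sided permutation p = 0.0286, 4 of 4 Cry DKO lines above all WT lines), and set against Egln2 by 0.46 (SE 0.14, p = 0.0571, permutation). Neither passed after adjustment over the 11 paralog pairs compared (0.105 and 0.126); the smallest p that the 70 assignments allow is 0.0286. With the mean of each gene's probe sets, Egln3 against Egln1 gave 0.22 (permutation p = 0.114) with 1 of 4 Cry DKO lines above all WT lines, so that separation was lost.

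Hif1a encodes the broadly expressed alpha subunit. It had 11.41, 11.54, 11.43 and 11.44 in WT lines and 11.58, 11.55, 11.60 and 11.74 in Cry DKO lines. The groups did not overlap, but WT line 2 and Cry DKO line 2 were separated by little. The difference of 0.17 (SE 0.05) did not pass (limma adjusted p = 0.0838), and the other probe sets gave 0.27 and 0.11, both with overlapping groups. Epas1, the alpha subunit best known from endothelium and other specialised cells, pointed the other way. WT lines had 7.48, 7.16, 7.99 and 7.57, and Cry DKO lines 7.57, 6.76, 6.93 and 6.76. Cry DKO lines 2 to 4 lay below every WT line, while Cry DKO line 1 lay among them. The difference of -0.54 (SE 0.20, limma adjusted p = 0.124) did not pass with all 8 lines and passed without Cry DKO line 1 (-0.73, adjusted p = 0.0314). Hif1a minus Epas1 within a line averaged 3.91 ± 0.38 (WT) and 4.61 ± 0.42 (Cry DKO; SD, n = 4; difference 0.71, SE 0.29, exact permutation p = 0.0571, 0.126 adjusted over 11 pairs). Arnt, the shared beta subunit, had a difference of -0.05 (95% interval -0.29 to 0.18), and Vhl, the substrate receptor of the ligase, one of -0.11 (-0.33 to 0.11). The sign of Vhl depends on the probe set, since its other one gave 0.04.

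**Figure D2:**
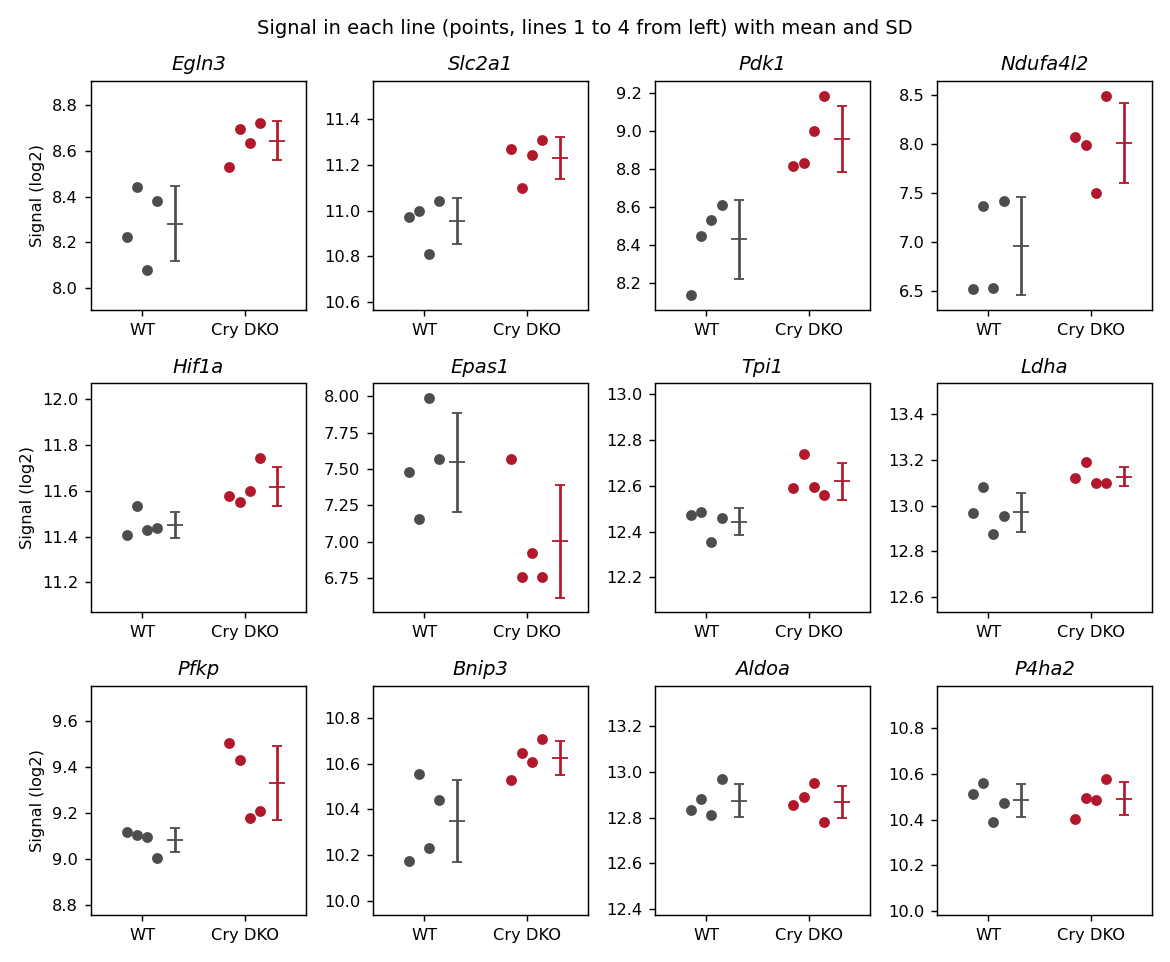
Signal (y axis, log2) of 12 genes in each line, with the mean and SD of each genotype beside the points; every panel spans at least 1 log2 unit. All Cry DKO points lie above all WT points for Egln3, Slc2a1, Pdk1, Ndufa4l2, Hif1a, Tpi1, Ldha and Pfkp, while Aldoa and P4ha2 overlap fully.

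The second comparison took glycolysis in the order of the pathway. Of its 20 genes 16 were tested, 1 rose and none fell, beside the 9.18% of all genes called, and the median difference was 0.14. The difference was above 0 for 13 of the 16. Slc2a1, the glucose transporter GLUT1, was the one called. WT lines had 10.97, 11.00, 10.81 and 11.04, and Cry DKO lines 11.27, 11.10, 11.24 and 11.31. The groups did not overlap, with WT line 3 lowest. The mean was 10.96 ± 0.10 in WT and 11.23 ± 0.09 in Cry DKO (SD, n = 4), and Slc2a1 rose by 0.27 (limma adjusted p = 0.0262, SE 0.06). The other probe sets gave 0.12 and 0.09, both with overlapping groups. The call ended without WT line 1 or 3 or Cry DKO line 1, 3 or 4 (adjusted p 0.0522 to 0.0709, differences 0.23 to 0.28), with the mean of its probe sets (0.16, adjusted p = 0.0908), without the intensity trend (0.0558) and with the sex term (0.0535). Slc2a3, the neuronal-type transporter GLUT3, had a difference of 0.08 (95% interval -0.18 to 0.34).

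Hexokinases phosphorylate glucose on entry. Hk2, the inducible form, had a difference of 0.12 (95% interval -0.03 to 0.27), and Hk1, the constitutive form, one of -0.10 (-0.25 to 0.05). Neither passed. Hk2 minus Hk1 within a line averaged 0.33 ± 0.06 (WT) and 0.55 ± 0.11 (Cry DKO; SD, n = 4), and all 4 Cry DKO lines were above all WT lines (difference 0.22, SE 0.06, exact permutation p = 0.0286, 0.105 adjusted over 11 pairs). With the mean of each gene's probe sets it was 0.25 (permutation p = 0.0571), with 3 of 4 Cry DKO lines above all WT lines. Phosphofructokinase, the committed step, has platelet, liver and muscle subunits. Pfkp had 9.12, 9.11, 9.09 and 9.003 in WT lines and 9.51, 9.43, 9.18 and 9.21 in Cry DKO lines. Cry DKO lines 1 and 2 were well above the WT lines and lines 3 and 4 just above them. Its difference of 0.25 (SE 0.08) did not pass (limma adjusted p = 0.0787), and its other probe set above the floor gave 0.13, with overlapping groups. Pfkl had a difference of 0.17 (adjusted p = 0.313, limma) and Pfkm one of -0.13 (adjusted p = 0.376, limma). The contrast of Pfkp with Pfkm, 0.38 (SE 0.13), had an exact permutation p of 0.0286 and 0.105 after adjustment. Pfkfb3 and Pfkfb4, which make the activator of phosphofructokinase, had differences of 0.20 and 0.24 (limma adjusted p = 0.336 and 0.243).

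The enzymes of the lower pathway had smaller errors. Aldoa, aldolase, was level between genotypes at -0.01 (95% interval -0.12 to 0.11), and its 5 probe sets ranged from -0.02 to 0.05. Tpi1, triose phosphate isomerase, had 12.47, 12.48, 12.36 and 12.46 in WT lines and 12.59, 12.74, 12.59 and 12.56 in Cry DKO lines. The groups did not overlap, and its 3 probe sets gave 0.18, 0.17 and 0.20, the last with overlapping groups. With an SE of 0.05 it just missed the threshold (limma adjusted p = 0.0536) and passed in 3 of 20 alternatives: quantile normalisation (0.0478), array weights (0.0369) and a replicate block (0.0394). Gapdh, read from control probe sets and not tested, averaged 13.71 ± 0.09 (WT) and 13.69 ± 0.05 (Cry DKO; SD, n = 4) in the brightest of them, and WT line 2 was highest at 13.85. Pgk1, phosphoglycerate kinase, had a difference of 0.08 (SE 0.04), and its other probe sets gave 0.21 and 0.25. Pgam1 had 0.07 and Pkm, pyruvate kinase, 0.08, with limma adjusted p of 0.476 and 0.463.

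At the end of the pathway Ldha makes lactate and Slc16a3, the transporter MCT4, exports it. Ldha had 12.97, 13.08, 12.88 and 12.95 in WT lines and 13.12, 13.19, 13.10 and 13.10 in Cry DKO lines. The groups did not overlap, though WT line 2 came close to the lowest Cry DKO line. Its difference of 0.16 (SE 0.05) did not pass (limma adjusted p = 0.0684). It passed without WT line 2 (0.19, adjusted p = 0.0297), after quantile normalisation (0.20, 0.0118), with array weights (0.0456) and with a replicate block (0.0377). Slc16a3 had a difference of 0.21 (95% interval -0.06 to 0.48), and its groups overlapped. Aldoc, a second aldolase below the floor, had 5.50, 5.09, 4.62 and 5.43 in WT lines and 5.84, 6.13, 5.95 and 5.50 in Cry DKO lines. The groups only just separated, with a difference of 0.70 (limma adjusted p = 0.096 in the fit without a floor, where 5.97% of genes were called). As background to these values, the 19 replication and mitosis genes tested all rose, with a median of 0.49. The macrophage markers had a median of 0.75 with 9 of 17 called. The part of the replication genes in the glycolytic values was not tested, and a fit with a macrophage term is given below with its limit.

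**Figure D3:**
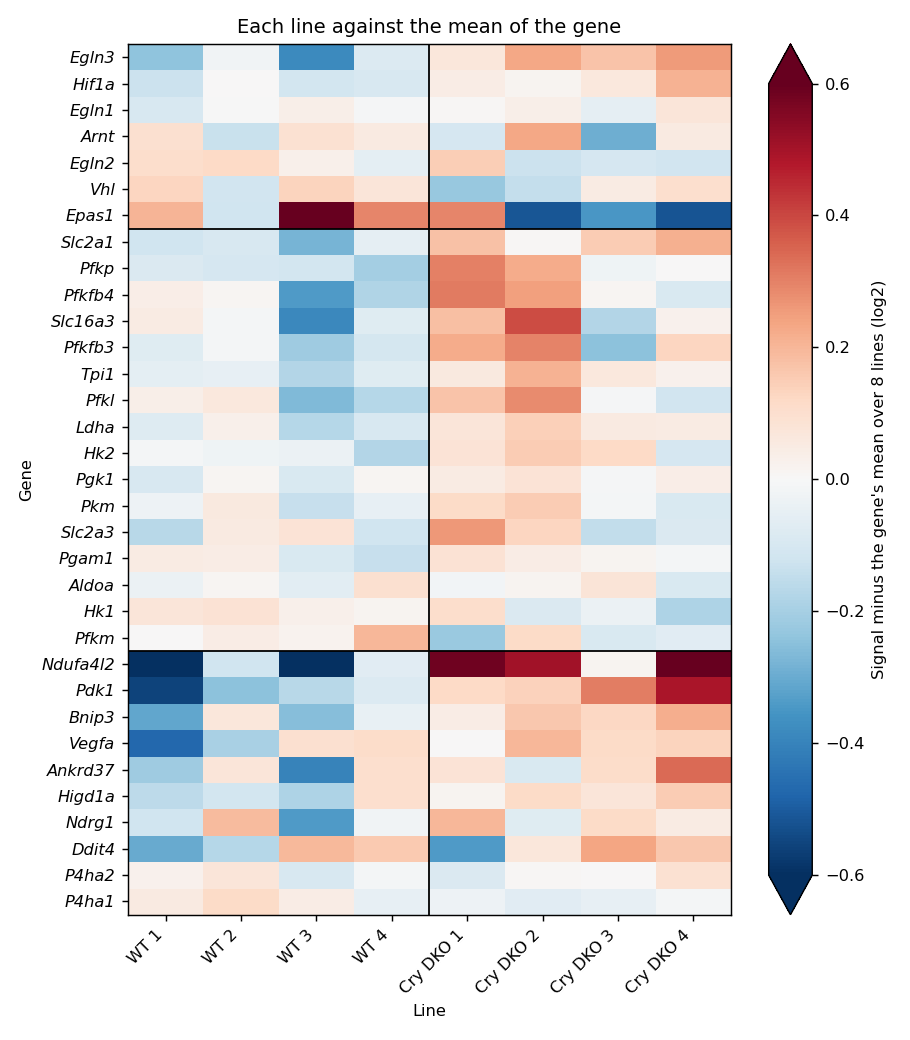
Signal of each tested gene in each of the 8 lines (columns) minus the mean of that gene over all lines (colour, log2; values beyond 0.6 take the end colour), with genes grouped by role and ordered by difference. WT line 3 is blue over most glycolytic genes, and Cry DKO line 4 is red over most other HIF targets and pale or blue over most glycolytic genes.

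The third comparison took HIF targets outside glycolysis, 13 genes of which 10 were tested; 2 rose and none fell, beside 9.18% of all genes, and the median difference was 0.20. Ndufa4l2, a mitochondrial protein induced by hypoxia, gave the greatest difference of the 33 genes. WT lines had 6.52, 7.37, 6.54 and 7.42, and Cry DKO lines 8.07, 7.995, 7.504 and 8.49. WT lines 2 and 4 came close to Cry DKO line 3 but stayed below it. The mean was 6.96 ± 0.50 in WT and 8.02 ± 0.41 in Cry DKO (SD, n = 4), and Ndufa4l2 rose by 1.06 (limma adjusted p = 0.0257, SE 0.25), which is 2.08-fold if the scale is log2. The call ended without WT line 1 or 3 or Cry DKO line 2 or 4 (adjusted p 0.0514 to 0.0716, differences 0.90 to 1.06) and with the sex term (0.052).

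Pdk1, the kinase that inhibits pyruvate dehydrogenase, was the steadiest call. It had 8.14, 8.45, 8.53 and 8.61 in WT lines and 8.81, 8.83, 9.001 and 9.19 in Cry DKO lines. The groups were clearly apart, with WT line 1 lowest and Cry DKO line 4 highest. The mean was 8.43 ± 0.21 in WT and 8.96 ± 0.17 in Cry DKO (SD, n = 4), and Pdk1 rose by 0.53 (limma adjusted p = 0.019, SE 0.11). Its other probe sets gave 0.21 and 0.43, also without overlap, though neither passed when each probe set was tested (limma adjusted p = 0.166 and 0.0535). The call held in each of the 8 fits that left out 1 line (adjusted p 0.0221 to 0.047), and with the sex term. With each gene on its own spread, without the moderation that limma applies, none of the 4 calls held (adjusted p 0.0884 to 0.128).

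**Figure D4:**
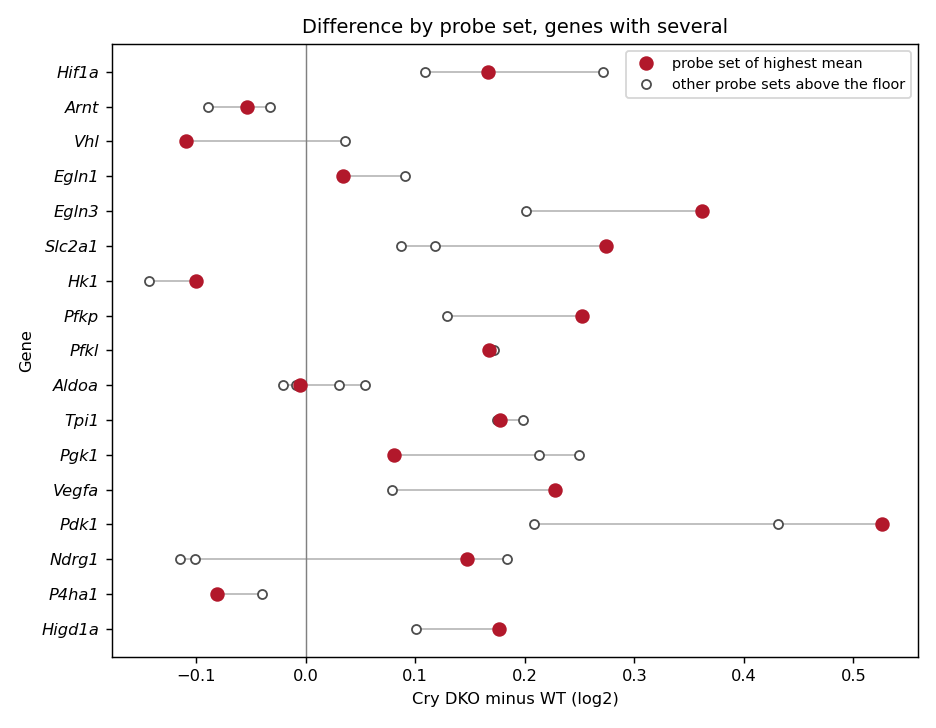
Difference between genotypes (x axis, log2) for each probe set above the floor, for the 17 genes with several. The probe set of highest mean (filled) gives the greatest difference for Egln3, Slc2a1 and Pdk1 and the smallest for Pgk1, and the probe sets of Vhl, Aldoa and Ndrg1 fall on both sides of 0.

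Bnip3, a mitophagy receptor, had 10.17, 10.55, 10.23 and 10.44 in WT lines and 10.53, 10.65, 10.61 and 10.71 in Cry DKO lines. Only WT line 2 reached into the Cry DKO range. The difference of 0.27 (SE 0.08, limma adjusted p = 0.0647) did not pass, and passed without WT line 2 (0.34, adjusted p = 0.0356), with a replicate block (0.0261) and with array weights (0.29, 0.049). Vegfa, the angiogenic growth factor, had a difference of 0.23 (limma adjusted p = 0.249), with WT line 1 low at 9.24 and the other WT lines at 9.52 to 9.82, beside 9.72 to 9.91 in Cry DKO lines. Higd1a, a mitochondrial survival protein, had 0.18 (adjusted p = 0.126, limma) and passed without WT line 4 (0.24, adjusted p = 0.034). Ankrd37 had 0.22 and Ndrg1, a stress-induced protein, 0.15, and the 4 probe sets of Ndrg1 split evenly, at 0.15, 0.18, -0.10 and -0.11. Ddit4, an inhibitor of mTOR complex 1 that also answers to glucocorticoids and other stresses, had 0.06 (95% interval -0.24 to 0.37). The collagen prolyl hydroxylases P4ha1 and P4ha2 had -0.08 (-0.19 to 0.03) and 0.01 (-0.12 to 0.13).

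Carbonic anhydrase 9, Car9, is among the most strictly HIF-dependent genes known, and it was dim. WT lines had 2.75, 4.62, 2.43 and 4.89, and Cry DKO lines 4.89, 4.82, 5.19 and 5.30. All 8 values are below the floor, where errors are wide (WT SD 1.26), and 1 WT line overlapped with the Cry DKO range. Its difference of 1.38 did not pass in the fit without a floor (limma adjusted p = 0.138). Car12 averaged 5.61 ± 0.34 (WT) and 5.74 ± 0.64 (Cry DKO; SD, n = 4).

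The lines of a genotype did not rank alike across the groups of genes. Among the 16 glycolytic genes WT line 3 was the lowest WT line for 9, and Cry DKO line 2 the highest Cry DKO line for 9. Cry DKO line 4 was the lowest of its genotype for 9 of the 16, yet the highest of its genotype for 7 of the 10 other HIF targets. WT line 1 was lowest of its genotype for 5 of those 10 and WT line 3 for 4. The macrophage marker mean was 8.74, 8.15, 8.45 and 8.70 in WT lines 1 to 4. It was 9.76, 9.30, 8.81 and 9.06 in Cry DKO lines 1 to 4. The median distance of the glycolytic genes from their own means was -0.03, 0.01, -0.12 and -0.09 in WT lines 1 to 4. In Cry DKO lines 1 to 4 it was 0.11, 0.15, -0.01 and -0.04. Both measures were thus higher in Cry DKO lines 1 and 2 than in lines 3 and 4. In WT lines they did not rank alike: line 2 had the lowest macrophage mean and the highest glycolytic median. A link was not tested. With the macrophage mean as a term none of the 33 genes passed, while 34 of the 9511 did. The differences of the 4 genes called without it were then 0.71 (Pdk1), 1.03 (Ndufa4l2), 0.47 (Egln3) and 0.27 (Slc2a1). The median of the 33 was 0.07, beside 0.15 without the term, so differences of some other genes shrank, but not of all. That of Slc16a3 was -0.01 with the term, beside 0.21 without it. Those of Bnip3 and Epas1 were further from 0 with the term, at 0.42 and -1.01, beside 0.27 and -0.54. The macrophage mean did not overlap between the genotypes, so this term and genotype cannot be cleanly told apart.

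Other genes of the same pathways were read from lists chosen by name. Of 9 tested HIF cofactors and partners of VHL none passed in limma (2 at an unadjusted p of 0.05, both lower); Os9, reported to bind HIF1A and the hydroxylases, had a difference of -0.22 (SE 0.07, adjusted p = 0.0557). Of 27 tested further HIF targets 2 rose and 2 fell, beside the 9.18% of all genes. At an unadjusted p of 0.05 in limma 3 were higher and 3 lower. The difference was above 0 for 16 of the 27 and below 0 for 11. The median was 0.04, beside 0.15 for the genes of the main comparison and -0.01 for all genes. Bhlhe40, a target of both HIF and the clock, rose by 0.54 (limma adjusted p = 0.00355, SE 0.08). Ak4, a mitochondrial adenylate kinase, rose from 7.90 ± 0.08 to 8.38 ± 0.17 (difference 0.47, adjusted p = 0.0132, limma). Tgfb3 fell by 0.34 (limma adjusted p = 0.0098) and Insig2, a regulator of sterol synthesis, by 0.33 (0.0214). The call of Insig2 ended without any 1 of WT lines 1 to 4 or Cry DKO line 2 or 3 (adjusted p 0.0511 to 0.0565).

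Of 11 tested genes of pyruvate and lactate fate 2 rose and none fell, beside the 9.18% of all genes called. Slc16a1, the lactate transporter MCT1, had 8.62, 8.58, 8.59 and 8.49 in WT lines and 9.06, 9.34, 9.11 and 9.26 in Cry DKO lines. It rose by 0.62 (limma adjusted p = 0.00156, SE 0.08), with the groups well apart. Mpc1, a subunit of the mitochondrial pyruvate carrier, had 9.71, 9.43, 9.77 and 9.72 in WT lines and 10.15, 10.18, 10.18 and 10.19 in Cry DKO lines. It rose by 0.52 (limma adjusted p = 0.00283, SE 0.07), and the Cry DKO lines were nearly equal. Both calls held in each of the 8 fits without 1 line. Ldhb, the other lactate dehydrogenase, had a difference of -0.31 that did not pass (limma adjusted p = 0.114).

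Of 9 tested isozymes and side steps of glycolysis 1 rose and 1 fell, beside the same 9.18%. Hk3, the hexokinase of myeloid cells, rose by 1.04 (limma adjusted p = 0.0359, SE 0.27): the WT mean of 6.02 ± 0.48 was just below the floor and the Cry DKO mean was 7.07 ± 0.48 (SD, n = 4). It was highest in Cry DKO line 1 (7.76) and lowest in WT line 2 (5.31), the lines with the highest and lowest macrophage mean. Its difference was 0.11 with that mean as a term. That mean did not overlap between the genotypes, so its part in a difference and that of genotype cannot be told apart. Eno3, the muscle enolase, fell by 0.39 (SE 0.10, adjusted p = 0.0382, limma), with overlapping groups. Of 8 smooth muscle markers 4 fell. Of skeletal muscle markers 2 were tested and none was called, though both were lower at an unadjusted p of 0.05 in limma. The skeletal markers Mylpf and Tnnt3, below the floor, had differences of 0.03 and 0.59. The part of either marker list was not tested. The calls of Hk3 and Eno3 ended without any of several single lines. For Hk3 these were WT line 2, 3 or 4 or Cry DKO line 1 or 2 (limma adjusted p 0.0551 to 0.0735). For Eno3 they were any line but WT line 3 and Cry DKO line 2 (0.052 to 0.103). Of 15 tested enzymes of the tricarboxylic acid cycle none passed in limma (1 at an unadjusted p of 0.05), with differences between -0.04 and 0.13, the highest that of Idh3a. With the macrophage mean as a term none of the called genes of these further lists passed in limma. Apart from Hk3 their differences were then 0.66 for Slc16a1 (limma adjusted p = 0.0564), 0.44 for Mpc1, 0.49 for Bhlhe40 and 0.58 for Ak4. Those of Tgfb3, Insig2 and Eno3 were -0.35, -0.33 and -0.48. Apart from Slc16a1 and Hk3 the limma adjusted p was 0.12 to 0.221. The limit given for Hk3 holds for these fits too.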

How the data were processed

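Gene expression was measured on 8 Affymetrix arrays, 4 WT and 4 Cry DKO lines, from 5 ug of total RNA each. The deposited values were used as they are. They are taken as log2 from their range (0.0675 to 14.3), and the submitters' processing notes name GCOS; the authors' summarisation and normalisation steps were not given in the sources used. Nearly equal array medians hide any global change in RNA. Of 30506 probe sets, 24838 had 1 gene in the platform annotation and 658 several; 24757 of the first were matched to the RefSeq table (GRCm38.p6) for current symbols. The test across genes used R 4.3.3 and limma 3.58.1 (lmFit, eBayes with trend), no covariate, and Benjamini-Hochberg adjustment over 9511 genes; the scripts were tested on simulated data. Groups came from sample titles. Paralog pairs were compared with exact two-sided permutation tests. P-values rest on the spread among lines the labels call independent, and 4 lines per genotype limit the precision (median within-genotype SD 0.13).

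All 40 genes are named, with Cry1 and Cry2 and the called genes of each further list, or the 1 of smallest p; Ldhb was named after its value was seen. The genes and lists were chosen with earlier results of these data known, so no pattern here is independent support for those. Alternatives were each line left out, a replicate block, normalisation, floor, probe set rule, variance moderation, array weights, sex and macrophage terms, and thresholds.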

Additional observations from a re-analysis of the deposited data

Results flagged for a closer look

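In 74 groups of 4 lines (37 genes in 2 genotypes), 3 held a line whose gap to its neighbour was past Dixon's 95% critical share of the range of the group, which chance gives in about 1 of 20 groups. Egln2 was highest in Cry DKO line 1, at 9.18 beside 8.90 to 8.93 in the others. Hk2 was lowest in WT line 4, at 9.93 beside 10.07 to 10.09. Gapdh was highest in WT line 2, at 13.85 beside 13.66 to 13.69.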

How the results depend on the processing

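Counts of called genes are given in the order all genes, the 33 genes, sensors, glycolytic genes, other targets and further lists; as reported they were 873, 4, 1, 1, 2 and 8. Leaving out 1 line gave 382 to 686, 1 to 6, 0 to 2, 0 to 2, 1 to 3 and 5 to 7; without WT line 1 or WT line 3 the 33 held 1 call. Fits without moderation gave 317, 0, 0, 0, 0 and 3; a sex term gave 520, 1, 0, 0, 1 and 6; a macrophage term gave 34, 0, 0, 0, 0 and 0. A threshold of 0.01 gave 210, 0, 0, 0, 0 and 4, and one of 0.10 gave 1437, 9, 2, 4, 3 and 10. The mean of probe sets gave 974, 2, 0, 0, 2 and 10, no trend 668, 3, 1, 0, 2 and 6, quantile normalisation 873, 6, 1, 3, 2 and 8, array weights 914, 7, 1, 3, 3 and 9, and a floor at the 60th percentile 705, 3, 1, 1, 1 and 7. The cause of these shifts was not tested. No called gene changed sign, and the median of the 33 stayed between 0.07 and 0.17. No paralog contrast passed with either probe set rule.

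The labels do not say that line numbers pair the genotypes, so lines were not paired in the reported fit. To compare lines across genotypes, the mean of each gene in its genotype was first subtracted from its values. These deviations correlated at 0.36, 0.12, 0.23 and -0.01 between same-numbered lines. Between differently numbered lines they correlated at -0.27 to 0.12. Lines 1, 2 and 3 correlated best with their own number and line 4 did not. The cause was not tested. With a replicate block the counts were 1051, 7, 1, 3, 3 and 10.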
